A study of Macaca mulatta with 26 samples.

Results

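Circular RNAs (circRNAs) built from 8 or more exons were examined in monkey skeletal muscle. Exonic circRNAs whose listed structure held at least 8 exons were taken from the 24 libraries sequenced at approximately 20000000 reads each. Circles with the same junction, strand and exon structure were counted as 1 circRNA, which was kept if it had at least 2 junction reads summed over the 24 libraries. The exon count alone chose them, without reference to age. This gave 579 circRNAs, which were 7.45% of the 7771 exonic circRNAs and belonged to the 8140 circRNAs of any type that passed the same read minimum. The muscle was vastus lateralis, from the thigh of rhesus monkeys that were all fed normal diets and received no labelled treatment. Each library came from 1 monkey. The young (Y) group had 6 animals aged 0.003, 0.005, 0.03, 2.8, 4.06 and 6.0 years, the middle-aged (MA) group 11 animals aged 11.3 to 16.93 years, and the old (O) group 7 animals aged 25.7 to 40.9 years. Further libraries, 1 from a young monkey aged 0.005 years and 1 from an old monkey aged 40.1 years, were sequenced in depth at approximately 100000000 reads. Libraries of these same ages are among the 24, and the labels do not say whether they came from the same monkeys. Total RNA was digested with RNase R, an exonuclease that removes linear RNA.

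A circRNA forms when the spliceosome joins the end of an exon backward to the start of the same exon or of an exon upstream of it, in the reaction called back-splicing. Long introns on either side of the circularized exons are known to favour this reaction, in particular where they carry sequences that pair with each other. Circles have no free ends, so exonucleases spare them and they can accumulate in tissues with little cell division, such as muscle. A read across the back-splice junction shows which exons are joined at the outer borders of a circle. The exons between those borders were taken from a linear transcript that matched the borders, either an Ensembl transcript or one that the authors assembled from the same libraries. The number of exons of a circle is therefore an assignment and was not read from the circle itself.

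The libraries held 822 to 11561 junction reads, with a median of 3924. The young libraries held 1996 to 7918, the middle-aged 822 to 11561 and the old 1317 to 8144. No pair of libraries had identical values. The 579 circRNAs had 3160 of the 82233 exonic junction reads, a share of 3.84% (95% Wilson interval 3.71% to 3.98%). A single library detected between 2 and 145 of them, with a median of 72. The fewest were found in MA replicate 10, which also had the fewest junction reads of all libraries and only 2 reads on circRNAs of 8 or more exons.

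Most of the circles were only a little above the minimum. There were 181 with 8 exons, 129 with 9 and 78 with 10, so that 388 of the 579 had 8 to 10 exons. Another 63 had 11 exons, 45 had 12, 27 had 13, 11 had 14 and 8 had 15. Larger circles were few, with 37 of at least 16 exons and 12 of at least 20, and the largest had 34 exons. The median spliced length, which is the sum of the exons, was 1161 nt (range 380 to 9556 nt). The exons and introns between the borders covered a median of 29353 bases of the genome (range 2857 to 346163). The mean exon of a circle had a median size of 120 nt.

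Mean reads per circRNA were lower just inside the minimum of 8 exons than just below it. The 294 circRNAs just below it, with 7 exons, had 2403 reads and a mean of 8.17 reads each. The 181 just inside it, with 8 exons, had 1081 reads and a mean of 5.97 reads each. The median was 3 reads at both exon counts, and the most-read circle had 351 reads at 7 exons and 125 at 8. At 11 exons the mean was 8.11. The mean was 14.2 reads for single-exon circRNAs and 5.46 for all circRNAs of 8 or more exons.

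**Figure D1:**
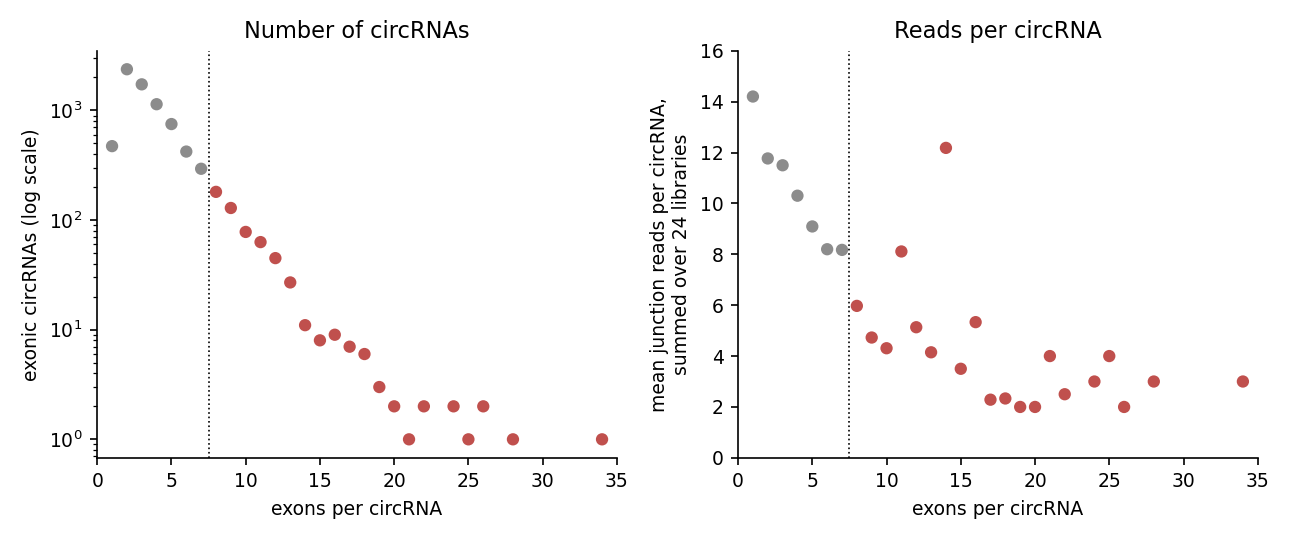
The left panel plots the number of exonic circRNAs (log scale) and the right panel the mean junction reads per circRNA summed over 24 libraries, both against the exons per circRNA. Red points are 8 or more exons and grey points fewer, and the dotted line is the minimum. From 2 exons on the number fell from 2378 to 181 at 8 exons and to 1 at 34 exons. The mean of 12.2 reads at 14 exons comes from 11 circRNAs, of which 1 had 88 reads.

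Reads were spread thinly over the circles. The median circRNA had 3 reads over the 24 libraries, and 264 of the 579 (45.6%) had exactly 2. At least 10 reads were found for 60 circRNAs and at least 20 for 18. In terms of libraries, 131 circRNAs were seen in 1 library, 243 in 2, 153 in 3 to 5 and 52 in at least 6, and only 10 were seen in 12 or more. Below the read minimum, a further 1639 structures of 8 or more exons had a single read in all, 73.9% of the 2218 structures at any read number. At the other end, the 10 most-read circRNAs held 766 reads, or 24.2% of all reads on circles of this size.

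The most-read circle was mmu_circ_009443 at chr18:14771495-14826320 (rheMac2, plus strand, counted from 1). It joined 11 exons of transcript ENSMMUT00000014297 into 1600 nt, and its 231 reads in 22 libraries were 7.31% of all reads on the 579 circRNAs. In the young libraries its level ran from 17.7 to 60.1 reads per 10000 junction reads of the library (median 25.5). In the middle-aged libraries it ran from 0 to 77.3 (median 20.7) and in the old from 6.09 to 55.4 (median 12.1). All young and all old libraries contained it, and the groups overlapped over most of their range. No other exon structure was listed for this junction.

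The next circle, mmu_circ_010824 at chr2:173225549-173289402 on the minus strand, had 8 exons, 741 nt and 125 reads in 13 libraries. It ranged from 0 to 55.1 reads per 10000 in young libraries (median 5.05), from 0 to 74.5 in middle-aged (median 18.8) and from 0 to 33.8 in old (median 0). It was listed in 3 of 6 young, 7 of 11 middle-aged and 3 of 7 old libraries. Its junction was listed more often than that, as described further on.

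The third circle, mmu_circ_004932 at chr12:86464618-86507773 on the minus strand, had 14 exons, 1503 nt and 88 reads in 18 libraries. Its level ran from 0 to 17.2 reads per 10000 in young libraries (median 9.43), from 0 to 33.1 in middle-aged (median 16.3) and from 0 to 13.9 in old (median 4.06). Within its locus 5 exonic circRNAs were listed, all of 10 to 14 exons, so that circles of 8 or more exons held 100% of the 105 exonic reads there.

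The 10-exon circle mmu_circ_016048 at chr6:63909250-63925462 had 899 nt and 56 reads in 14 libraries. It ran from 0 to 19.3 reads per 10000 in young (median 5.94), from 0 to 10.04 in middle-aged (median 2.33) and from 0 to 22.8 in old libraries (median 3.96). Together with the first 3 circles it made up the well-covered members, that is, those with 2 or more reads in 12 libraries or more. In all 4 of them every pair of age groups overlapped.

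The remaining circles among the 10 most read had 30 to 61 reads. They were an 8-exon circle of 589 nt on the same chromosome 2 junction (61 reads), an 8-exon circle at chr6:43542500-43560922 (56 reads), a 9-exon circle of 846 nt at chr9:32637023-32659336 (45 reads), an 8-exon circle at chr9:96084458-96119101 (42 reads), an 8-exon circle of 1142 nt at chr18:14771495-14805787 (32 reads) and an 8-exon circle at chr2:160662589-160705914 (30 reads). Of these, the chr9:96084458-96119101 circle had a higher median in old libraries (7.59 reads per 10000) than in young (2.51) or middle-aged (0), and the ranges overlapped.

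**Figure D2:**
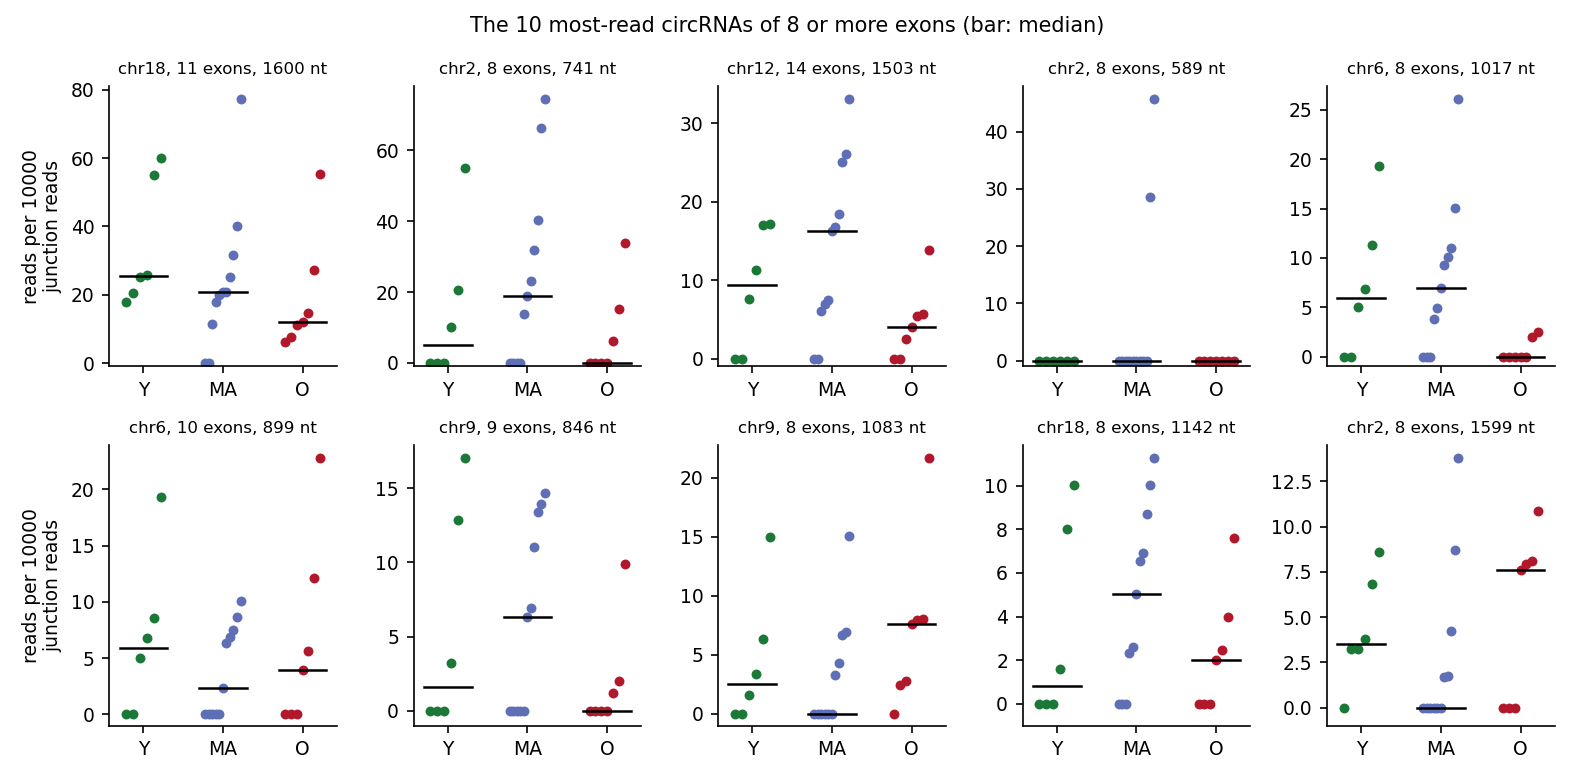
Each panel shows 1 of the 10 most-read circRNAs of 8 or more exons, with 1 point per library, reads per 10000 junction reads of that library on the vertical axis, the age group (Y, n = 6; MA, n = 11; O, n = 7) on the horizontal axis and a bar at the median. The groups overlap in all 10 panels. The 589-nt circle is above 0 only in 2 middle-aged libraries.

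Most of the 579 circles shared a border with another circle. Of the 579, 457 (78.9%) used an acceptor or a donor splice site that another back-splice junction also used. The acceptor was shared by 369 and the donor by 266. These shares were not computed for circles of fewer exons, so they are not shown to be particular to large circles. The 579 circRNAs lay on 506 back-splice junctions and in 364 loci, a locus being a set of such circles that overlap on a strand. In 250 loci there was a single circle of 8 or more exons, and the other 114 held 329 circles.

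The chromosome 18 locus shows a series of circles that begin at a common acceptor at position 14771495. Its most-read junction closed at 14785401 with 3 to 5 exons and had 829 reads. The 11-exon junction at 14826320 followed with 231 reads. Between these lay junctions closing at 14798818 (6 exons, 4 reads), 14805787 (7 or 8 exons, 39 reads) and 14809829 (8 or 9 exons, 18 reads). These are counts over structures with at least 2 reads. Reads did not decline steadily with the number of exons, and the longest circle of the series had more reads than the 3 just shorter ones. Circles of 8 or more exons made up 23.8% of the 1197 exonic reads in the locus.

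On chromosome 8 an acceptor at position 125666461 was paired with different exon structures in different libraries. The junction closing at 125704810 had 68 reads in 18 libraries, assigned to 9 structures of 8 to 12 exons and 1018 to 1694 nt. The junction closing at 125696610 had 54 reads in 15 libraries, assigned to 7 structures of 5 to 9 exons. In all, 12 circRNAs of 8 or more exons came from this locus with 114 reads. The locus with the most such circles, 14 on 6 junctions, was at chr15:27102807-27247313. Its circles had 8 to 24 exons and 98 reads, 42.6% of the 230 exonic reads there.

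Each library lists a junction with a single structure, so reads of a junction could fall on different circRNAs in different libraries. This applied to 199 of the 579 circRNAs (34.4%), whose junction also had another structure, and for 45 of them at least 1 of these had fewer than 8 exons. A junction had up to 9 structures. Over all junctions used by the 579 circRNAs, their own structures held 85.4% of 3701 reads.

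The chromosome 2 junction of mmu_circ_010824 was the clearest case among the most-read circles. It had 229 reads over 6 structures of 7 to 9 exons. The 741-nt structure was given in 13 libraries, the 589-nt structure in 2 middle-aged libraries (28 and 33 reads), and structures of 541, 676, 693 and 789 nt in 1 library each with 18, 12, 7 and 6 reads. Summed over structures, the junction was present in all 6 young libraries, at 10.1 to 55.1 reads per 10000 (median 24.7). It was present in 9 of 11 middle-aged libraries (0 to 74.5, median 28.5) and in 4 of 7 old libraries (0 to 33.8, median 6.06). The zeros of the 741-nt circle in 3 young libraries therefore came from libraries in which the junction was given another structure.

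A region at chr7:164240310-164283671 on the plus strand had circles only in monkeys under 1 year. It was singled out after its values were seen, so no test was applied. It held 8 circRNAs of 8 to 17 exons with 58 reads. All of these came from the 3 monkeys under 1 year, with 39 reads at 0.005 years, 14 at 0.003 years and 5 at 0.03 years. That was 62.9, 47.7 and 6.31 reads per 10000. The other 21 libraries had 0 reads, including those of the young monkeys aged 2.8 to 6.0 years. A count of 0 allows up to 0.720 reads per 10000 for the middle-aged group and 1.01 for the old group, taken as 3 reads over the group. Shorter circRNAs of the region gave the same picture, with 60 reads in the same 3 libraries and 0 elsewhere. In the in-depth libraries, circles of 8 or more exons in this region had 179 reads (29.5 per 10000) at 0.005 years and 0 reads at 40.1 years. The in-depth library at 0.005 years may come from the same monkey as the initial library of that age, which gave 39 of the 58 reads. All 8 circles were placed on assembled transcripts, and the host gene was not identified here. Among the 61 loci with at least 10 reads on circles of 8 or more exons, this was the only one with all of its reads in the 3 youngest monkeys, and the median locus had 14.3% there. In 5 of the 61, this one included, these monkeys had at least as many reads as all other libraries together. Some loci below that minimum also had all of their reads there. The one with the most reads, at chr8:143260138-143394319, had 9, with 15 in depth at 0.005 years and 0 at 40.1 years. The 3 libraries held 17.2% of all junction reads.

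**Figure D3:**
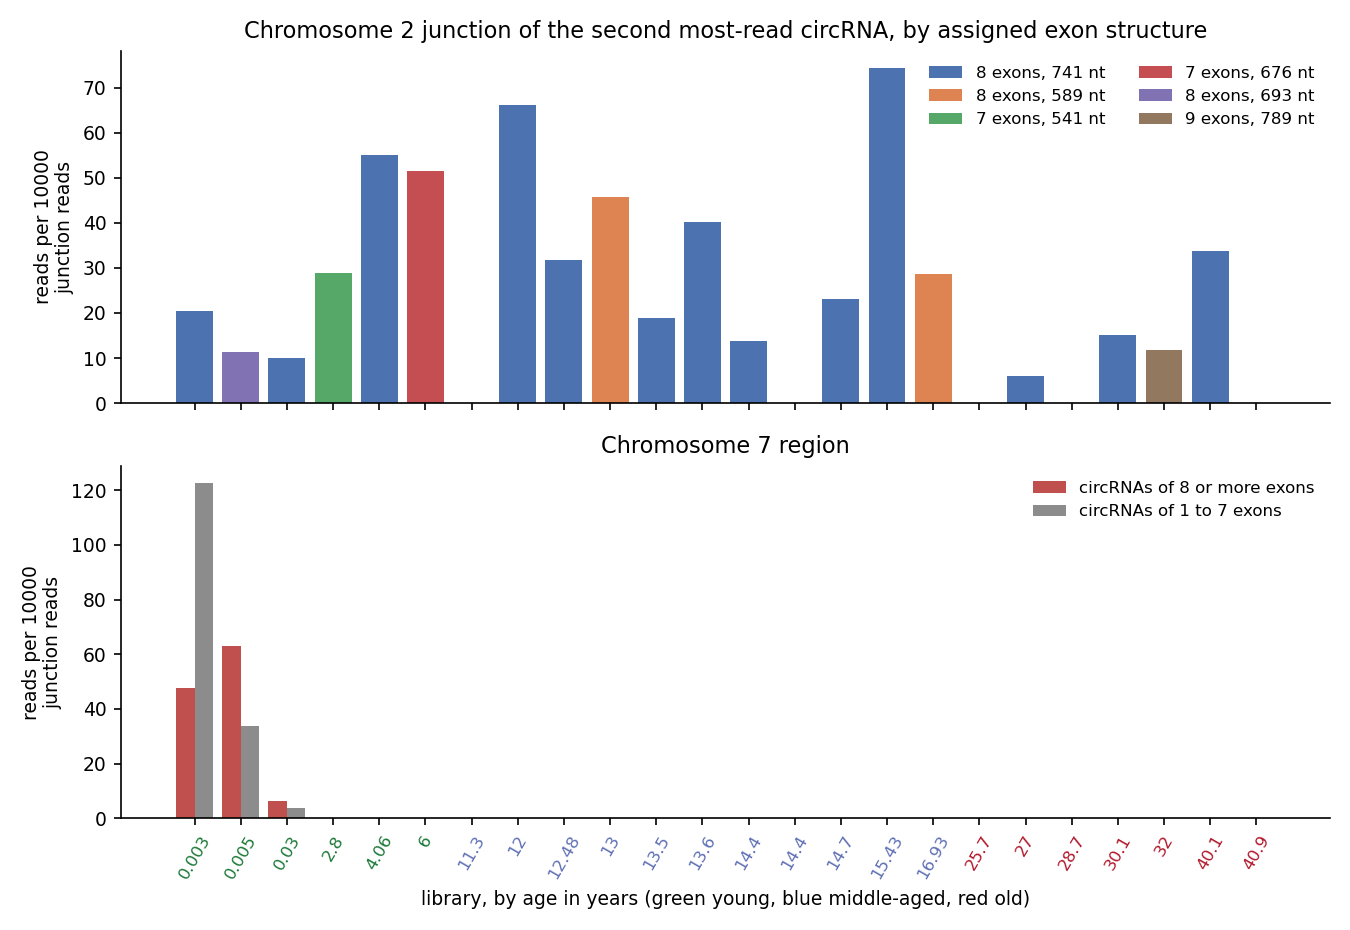
Both panels show reads per 10000 junction reads in each of the 24 libraries, ordered by age in years on the horizontal axis, with label colours for the age groups. The upper panel is the chromosome 2 junction, each bar coloured by the exon structure listed in that library, and the structure changes from library to library. The lower panel is the chromosome 7 region, with circRNAs of 8 or more exons in red and of 1 to 7 exons in grey, and only the 3 monkeys under 1 year have bars.

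The circles with the most exons had few reads. The largest, with 34 exons and 9556 nt, lay at chr12:42351193-42370346 and had 3 reads in 1 middle-aged library. A 26-exon circle of 7556 nt at chr12:42394626-42422800 had 2 reads in 1 old library. A 28-exon circle at chr10:54615785-54658608 lay in XRN2, a nuclear exoribonuclease, and had 3 reads in 3 libraries. A 26-exon circle of 3330 nt at chr11:102816838-102877767 lay in MYBPC1, which encodes the slow skeletal form of myosin-binding protein C, a component of the sarcomere. It had 2 reads in 1 middle-aged library and 4 reads in the in-depth library at 40.1 years. A 25-exon circle at chr6:43542500-43595095 had 4 reads in 3 libraries and 8 in the in-depth library at 0.005 years. It shared its acceptor with the 8-exon circle named above. The other circles among the 5 longest were 4644 nt with 13 exons at chrX:76313700-76370227, 4113 nt with 20 exons at chr13:32524931-32571421 and 4023 nt with 17 exons at chr6:136923377-136949881, each with 2 reads.

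Host genes could be named for only a small part of the circles. An Ensembl transcript was listed for 252 circRNAs in at least 1 library, and the other 327 were placed only on assembled transcripts. A gene symbol was found for 25 circRNAs (4.32%) in 15 genes, with 85 reads, so counts over gene lists, including those of muscle fibre and other cell type markers, were void. These 25 are all that had a symbol and were not chosen by level. Symbols came only through transcripts in the study's list of circRNAs added by in-depth sequencing. ST7L hosted 4 of them with 17 reads. DENND1B, an exchange factor for Rab GTPases, hosted 3 with 12 reads. EVI5, STXBP3, which takes part in vesicle fusion, and the nuclear import receptor IPO8 hosted 2 each. Hosts of 1 circle each were ATG4C, a protease of the autophagy machinery, the nucleoporin NUP133, the exchange factor VAV3, XRN2, PHF20, the RNA-binding protein LARP4, MYBPC1, the inositol trisphosphate receptor ITPR2 and LRRFIP1. No circle with a symbol had more than 7 reads.

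Among host transcripts, ENSMMUT00000014297 on chromosome 18 had the most reads, 275 on 3 circRNAs. Next came an assembled transcript on chromosome 2 with 131 reads on 3 circRNAs and one on chromosome 12 with 100 reads on 4. ENSMMUT00000005564 on chromosome 9 had 57 reads on 3. The most circles on a single transcript were 4, reached by 6 transcripts, among them ENSMMUT00000022317 on chromosome 2 (36 reads) and ENSMMUT00000009043 on chromosome 14 (14 reads).

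Circles of 8 or more exons were then compared with smaller ones on features that the rule for choosing them did not use. Each library gave 1 value per size class, and classes were compared over the 24 libraries by paired permutation tests (100000 sign flips, two-sided, Benjamini-Hochberg adjusted). The libraries list many of the same circRNAs, so their values are not fully independent. The smallest p that these permutations can give is 1e-05.

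A detected circle of 8 or more exons had fewer reads than a smaller one. The mean per detected circRNA was 1.76 ± 0.392 reads (SD, n = 24 libraries), against 2.77 ± 0.692 for 1 exon, 2.36 ± 0.544 for 2, 2.48 ± 0.630 for 3 to 4 and 2.39 ± 0.525 for 5 to 7 exons. It was lower in 24, 22, 24 and 24 of 24 libraries, and the permutation test gave an adjusted p of 1e-05 in each comparison. With the median in place of the mean, circles of 8 or more exons had 1 read in every library and the differences of -0.271 to -0.0417 reads were not significant.

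In the per-library medians, the intron downstream of the circle was longer than for circles of 2 to 7 exons. With each circRNA counted once, the differences were smaller and were not tested. The median was then 7155.5 bases, against 4826 for 2, 6306 for 3 to 4, 6948 for 5 to 7 and 6681 for 1 exon. The median per library averaged 10.2 ± 3.78 kb (SD, n = 24), against 5.29 ± 0.491 kb for 2 exons, 7.58 ± 0.637 kb for 3 to 4 and 8.02 ± 1.17 kb for 5 to 7 exons. It was longer in 24, 22 and 19 of 24 libraries (permutation test, adjusted p = 2.5e-05, 2.5e-05 and 0.00136). Single-exon circles, at 10.6 ± 3.82 kb, did not differ beyond the spread (difference -0.339 ± 5.70 kb, SD of the paired difference, adjusted p = 0.874), but with means in place of medians the difference was -8.49 kb and passed the test (adjusted p = 4.44e-05). The differences from 3 to 4 and from 5 to 7 exons lost significance when circles with a single read were included (0.480 and 0.459 kb) and with means in place of medians (0.558 and 0.631 kb), and that from 5 to 7 exons also on Ensembl transcripts alone (1.22 kb).

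The upstream intron, at 8.05 ± 2.18 kb, was longer only than that of 2-exon circles (6.15 ± 0.335 kb, permutation test, adjusted p = 1.56e-04, 20 of 24 libraries), and with means in place of medians that difference was -0.342 kb and not significant. With means, the upstream intron was shorter than for 1 exon (difference -10.7 kb, permutation test, adjusted p = 2.5e-05), 3 to 4 exons (-1.84 kb, 0.0115) and 5 to 7 exons (-1.88 kb, 0.0225). It was also shorter than for 5 to 7 exons with circles of a single read included (-1.14 kb, adjusted p = 0.0158) and with at least 3 reads (-1.30 kb, 0.0328), and than for 1 exon with single reads included (-1.16 kb, 0.0388). With each circRNA counted once, its median was 6237 bases, against 6749.5 for 1, 5485 for 2, 6618 for 3 to 4 and 7699 for 5 to 7 exons, not tested. The exons themselves were of similar size in the larger classes. Their mean size was 121 ± 6.80 nt for 8 or more exons, 120 ± 4.72 nt for 5 to 7 and 119 ± 3.64 nt for 3 to 4 exons, and these differences did not pass the permutation test (adjusted p = 0.246 and 0.0792). The difference from 3 to 4 exons passed it under several other settings, in either direction. It was 129 ± 3.12 nt for 2 exons and 403 ± 89.9 nt for 1 exon, both larger (adjusted p = 2.5e-05).

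The share of circRNAs on assembled transcripts was 65.3 ± 10.02% per library and differed from no other class beyond the spread (61.6% to 66.0%, adjusted p from 0.116 to 0.869). With circles of a single read included, it was 3.96 percentage points higher than for 2 exons and passed the test (permutation test, adjusted p = 0.00480). The share whose junction carried another structure was largest for the largest circles. It was 38.0 ± 5.30% for 8 or more exons, against 31.3 ± 5.10% for 5 to 7, 18.7 ± 3.15% for 3 to 4, 8.02 ± 1.58% for 2 and 2.36 ± 1.48% for 1 exon (permutation test, adjusted p = 2.5e-05 in each comparison). The difference from 5 to 7 exons was 0.573 percentage points and not significant when circles with a single read were included. This share is not independent of the exon count, since more inner exons leave more ways to assign a structure. Its rise with exon count is therefore not a separate trait of large circles.

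**Figure D4:**
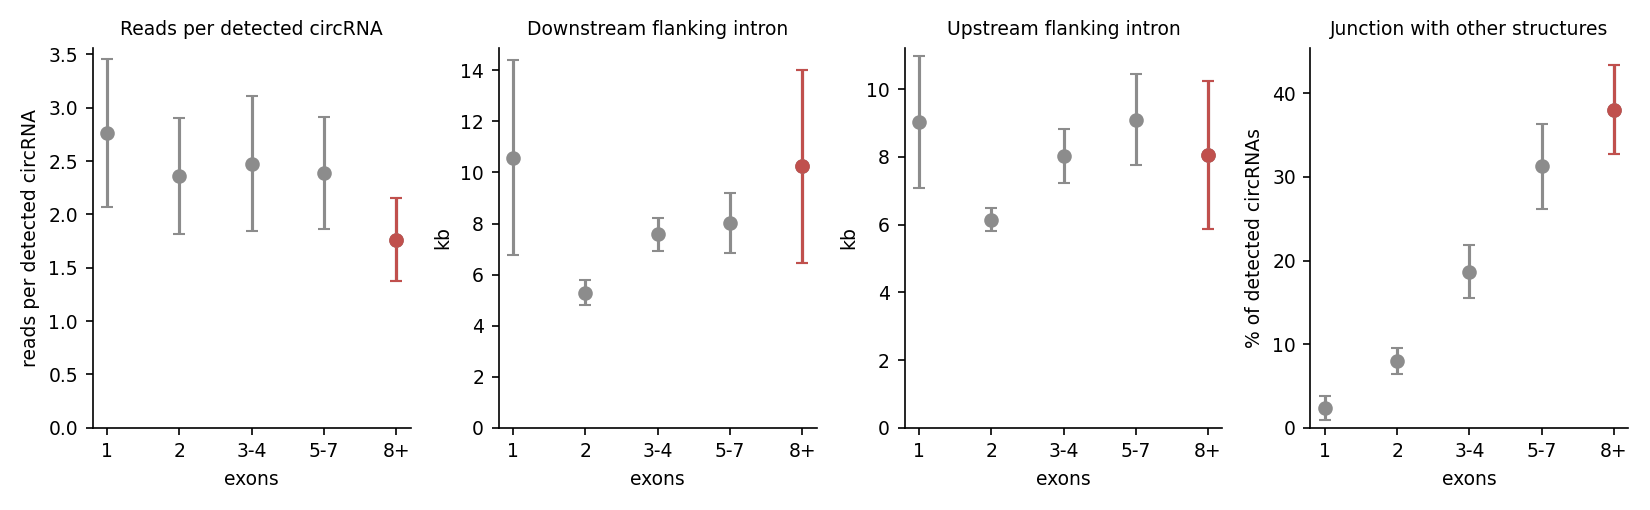
The 4 panels show, for each exon class on the horizontal axis, reads per detected circRNA, the downstream and the upstream flanking intron (kb) and the percent of detected circRNAs whose junction has another exon structure. Points are means of 24 library values and bars are SD, with circles of 8 or more exons in red. Reads per detected circRNA are lowest (1.76) and the share with another structure is highest (38.0%) for circles of 8 or more exons.

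The in-depth libraries showed how far these circles could be found again. Of the 579, 244 (42.1%) were listed at 0.005 years and 172 (29.7%) at 40.1 years. In either they were 308 (53.2%) and in both 108. For 2-exon circles the shares were 60.6% and 52.3%, and for circles of 5 to 7 exons 45.6% and 39.9%. A circle counted as found only with the same exon structure, so a junction listed with another structure was missed. Junctions with another structure were carried by 34.4% of circles of 8 or more exons, 28.3% of 5 to 7 and 6.43% of 2 exons. These shares therefore mix detection with the assignment of structures. At this depth, structures of 8 or more exons held 5.50% (95% Wilson interval 5.32% to 5.69%) of the exonic junction reads at 0.005 years and 5.38% (5.14% to 5.63%) at 40.1 years. Counted the same way, with single reads included, the initial libraries of the same labelled ages had 6.16% (5.58% to 6.80%) and 5.19% (4.49% to 6.00%). With 1 library per age no test was made, and the intervals cover counting error only. The 11-exon circle mmu_circ_009443 had 80 and 43 reads in the in-depth libraries and the 10-exon circle mmu_circ_016048 had 68 and 18. The 741-nt circle mmu_circ_010824 had 65 reads at 0.005 years and 0 at 40.1 years, whereas the initial library labelled 40.1 years, old replicate 2, had 12 reads of it, the most in the old group. Only reads of this exact structure were counted, so the 0 does not show that the junction was missing.

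The study compared age groups, and the first question was whether circles of 8 or more exons took a different share of the exonic junction reads with age. In young libraries the share was 3.27% to 5.30% (median 4.49%), in middle-aged 0.363% to 6.00% (median 3.93%) and in old 1.18% to 5.15% (median 3.43%). The groups overlapped. The means were 4.45 ± 0.756% (SD, n = 6), 4.003 ± 1.45% (n = 11) and 3.31 ± 1.27% (n = 7). The difference of old from young monkeys was -1.15 percentage points and did not pass the threshold (exact permutation test over 1716 splits, two-sided, p = 0.0723, adjusted 0.217). The differences between middle-aged and young (-0.452 points, exact permutation test, p = 0.540) and between old and middle-aged (-0.697 points, exact permutation test, p = 0.317, adjusted 0.475) did not pass it either. Fewer cells of a type and less RNA per cell cannot be told apart in whole muscle.

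The old library with the lowest share (1.18%) was replicate 4, of a monkey aged 40.9 years, and the middle-aged one (0.363%) was replicate 10. Without these 2 libraries, old differed from young by -0.793 points (exact permutation test, p = 0.134, adjusted 0.211). With 7 in place of 8 exons as the minimum the difference between old and young was -2.09 points and passed the threshold (5.90% against 7.99%, exact permutation test, p = 0.0117, adjusted 0.0350). The share did not follow the depth of the library over the 24 libraries (Pearson r = -0.0871, permutation p = 0.682, and Spearman rho = -0.131, permutation p = 0.539). Without the 2 libraries farthest from the median depth, r was 0.0239. Within the young group r was -0.724 (permutation p = 0.118, n = 6).

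**Figure D5:**
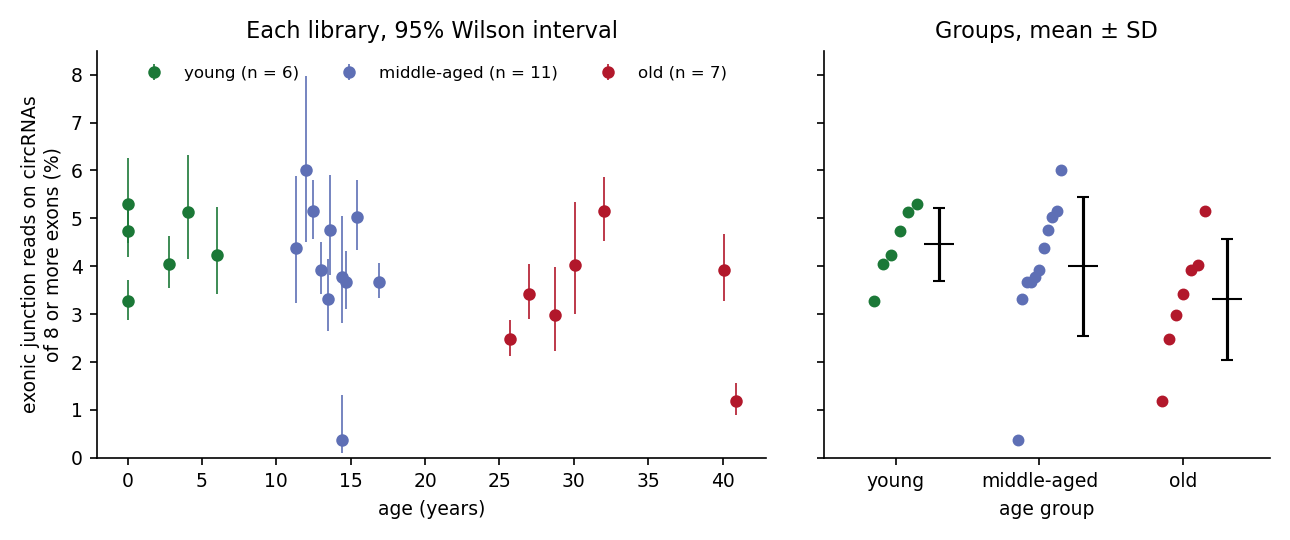
The left panel plots the percent of exonic junction reads on circRNAs of 8 or more exons against age in years, 1 point per library with its 95% Wilson interval. The right panel shows the same values by age group with the mean ± SD in black. The means are 4.45%, 4.003% and 3.31%, and 1 middle-aged library lies at 0.363% and 1 old library at 1.18%.

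Age groups were next compared for each circRNA with edgeR's quasi-likelihood test and Benjamini-Hochberg adjustment over all circRNAs tested. Among the 218 well-covered circRNAs of any type, 4 had 8 or more exons. None of the 4 was called between old and young, where 0% of the 218 were called, between middle-aged and young (0%) or between old and middle-aged (0.459%). At an unadjusted p below 0.05 there were 0, 0 and 1 of them, against 5.50%, 6.88% and 5.05% of all 218. Log2 fold changes of old against young were -0.75 (SE 0.61) for mmu_circ_009443, -0.79 (SE 1.25) for mmu_circ_010824, -0.80 (SE 0.75) for mmu_circ_004932 and -0.47 (SE 0.81) for mmu_circ_016048, with adjusted p from 0.920 to 0.984 in edgeR's test. None passed the test, and the sign turned for 3 of them when young libraries were left out. Without the monkeys under 1 year, the value turned to 1.096 for mmu_circ_016048 and to 0.047 for mmu_circ_004932. It turned to 0.35 for mmu_circ_016048 without young replicate 1 and to 0.26 for mmu_circ_010824 without young replicate 2. The values for mmu_circ_010824 leave out reads of its junction that were given another structure. Summed over structures, this junction had a log2 fold change of -1.61 for old against young (SE 0.71, adjusted p = 0.794, edgeR). It was -1.82 for old against middle-aged (SE 0.65, adjusted p = 0.440) and 0.21 for middle-aged against young (SE 0.60, adjusted p = 0.983). None of these was called.

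A wider set required 10 or more reads in all and reads in 6 or more libraries. Its 1306 circRNAs included 38 circRNAs of 8 or more exons. None of the 38 was called between old and young (0.459% of the 1306 called), middle-aged and young (0.153%) or old and middle-aged (0%). At an unadjusted p below 0.05 there were 1, 2 and 5 of the 38, against 9.42%, 10.3% and 8.73% of all circRNAs tested. DESeq2, run on the same sets, called 0 of them as well, with 1, 0 and 1 at an unadjusted p below 0.05 in the wider set. The shares of all 1306 under DESeq2 are not given here, so its counts cannot be set against a background. The median log2 fold change of the 38 was -0.51 for old against young, with 26 of 38 lower in old monkeys, and -0.0033 over all 1306 circRNAs, of which 50.2% were lower. For middle-aged against young the medians were -0.22 for the 38 and 0.015 over all, and for old against middle-aged they were -0.01 and 0.0047. The last of these turned positive for the 38 under TMM (0.13), no scaling (0.10) and DESeq2 (0.13), settings that also moved the median of all circRNAs to 0.16, 0.14 and 0.14.

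Among the 38, the smallest p was for a 12-exon circle of 1913 nt at chr15:56179142-56282054, chosen here by that p. It had 2 reads in 2 young libraries, 11 in 5 middle-aged libraries and 0 in the old ones. Middle-aged libraries together had 2.64 reads per 10000, and a count of 0 over the old group allows up to 1.01 (adjusted p = 0.111, edgeR). The ratio of these values, 2.62, is no lower limit, since it leaves out the counting error of the middle-aged reads and the spread between monkeys. The 8-exon circle at chr6:43542500-43560922 had 22 reads in young, 31 in middle-aged and 3 in old libraries. Its level was 0 to 19.3 reads per 10000 in young (median 5.91), 0 to 26.1 in middle-aged (median 6.92) and 0 to 2.46 in old libraries (median 0). The log2 fold change of old against young was -2.69 (SE 1.00, adjusted p = 0.206, edgeR). This junction was given a 9-exon structure, with 19 reads, in old replicate 5 and young replicate 4. With the structures summed, old libraries had 18 reads of the junction and young ones 26, and the log2 fold change was -0.57 (SE 0.77, adjusted p = 0.913, edgeR).

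With the reads of each junction summed over its structures, 1 of the 59 junctions of 8 or more exons in the wider set was called, between middle-aged and young monkeys, where 0.145% of 1380 junctions were called. It was chr18:14771495-14809829, of the series on the chromosome 18 acceptor. The young libraries had 0 to 4 reads (median 2, 13 in all) and 5 of 6 contained it. The 11 middle-aged libraries had 0 reads, and the old ones had 0 to 3 reads, 5 in all from 2 libraries. Young libraries together had 4.71 reads per 10000 junction reads, and a count of 0 over the middle-aged group allows up to 0.720. The ratio of these values, 6.54, is no lower limit. It leaves out the counting error of the young reads and the spread between monkeys. The adjusted p in edgeR's test was 0.0403. It lost the call when young replicate 3 or middle-aged replicate 1, 3, 6, 7, 8 or 9 was left out (adjusted p from 0.0598 to 0.102, edgeR) and kept it for the other 10 libraries, and DESeq2 gave an adjusted p of 0.996 (unadjusted 0.0165). Between old and young 0 of the 59 junctions were called (0.290% of all), and between old and middle-aged 0 (0.217%). Of the 9 such junctions in the well-covered set, 0 were called in any comparison. EdgeR called 0%, 0% and 0.388% of all 258 junctions there for old against young, middle-aged against young and old against middle-aged. At an unadjusted p below 0.05 in edgeR's test there were 1, 5 and 8 of the 59 and 1, 0 and 2 of the 9, in the same order. The shares of all 1380 and all 258 junctions below that p were not computed. These unadjusted counts therefore have no background and are not read as a result.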

How the data were processed

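Total RNA of vastus lateralis was digested with RNase R, and libraries were made with random priming and without poly(A) capture. The submitters' notes name cutadapt, TopHat2 2.0.14, Bowtie2 2.2.4 and Cufflinks 2.2.1. Reads were aligned to rheMac2 and circRNAs called with CIRCexplorer, whose version is not given in the sources used here. The deposited values are raw junction read counts for each circRNA, which the authors did not normalize. A circRNA not listed for a library was given a count of 0, although a failed call would look the same as an absent circle. Reads without molecular identifiers are not independent molecules, so intervals and the limits for a count of 0 (3 reads) cover counting error only.

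The circRNAs, gene lists and tests were chosen with earlier results of these data known. Age groups follow the labels. Levels were scaled to the junction reads of the library. Age was tested with edgeR 4.0.16 in R 4.3.3 (robust quasi-likelihood, 3 groups in one fit), tested first on simulated data. Exact and paired permutation tests were run in Python 3.11.15 with numpy 2.4.6 and scipy 1.17.1. Standard errors (SE) were derived from the log2 fold change and the F statistic. Named circRNAs were the 10 most read, the 5 with most exons, the 5 longest, all well-covered ones and those past an adjusted p of 0.05. Named host transcripts were among those with the most circles or reads. Exceptions are stated beside their values. DESeq2 1.42.0, TMM and no scaling were alternatives. mmu_circ names and the transcript-to-gene pairs behind the symbols came from the study's supplementary tables, and symbols from Ensembl gene identifiers. No genome of this build was used, so no sequences are printed. Not every host gene with a symbol is reported here.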

Additional observations from a re-analysis of the deposited data

Results flagged for a closer look

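For the 4 well-covered circles and the share of reads on circles of 8 or more exons, 3 of 10 groups of 6 or 7 libraries had a library far above the rest. The gap of the highest library to the next was divided by the range of the group and compared with Dixon's 95% critical value. For the 741-nt circle mmu_circ_010824 on chromosome 2, the highest young library had 55.11 reads per 10000 junction reads (ratio 0.629). It was young replicate 2, aged 4.06 years, and 3 of the other young libraries listed this junction with another structure, among them replicate 3 with 51.5 reads per 10000. For the 11-exon circle mmu_circ_009443, the highest old library had 55.45 reads per 10000 (ratio 0.574), and for the 14-exon circle mmu_circ_004932 it had 13.86 (ratio 0.594). Both were old replicate 5, aged 32.0 years, which also had the highest share on circles of 8 or more exons among the old (5.15%).

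The in-depth libraries, which entered no age comparison, listed 1883 structures of 8 or more exons, and 1338 of these were not among the structures of the 24 libraries. With at least 2 reads, 291 lay on junctions that none of the 24 libraries listed, and 44 junctions not listed there were found in both in-depth libraries.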

How the results depend on the processing

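No analysis paired across age groups was possible because each library compared by age came from a different monkey. The differences in share kept their direction and their side of the threshold when each library was left out. Old against young ranged from -1.456 to -0.793 points, middle-aged against young from -0.689 to -0.0875 and old against middle-aged from -1.06 to -0.341. The number of called circRNAs of 8 or more exons stayed at 0 in each of the 6 counts with a library left out. Of 194 other alternative values of these results, 160 kept direction and call, and the cause of the changes was not tested. Of 931 values of single circRNAs or junctions under alternatives, 923 kept their side of the threshold, and the other 8 were of the 1 called junction, which lost its call. The sign turned in 58 of the 931, all of them fold changes that were called neither before nor after. Counts of calls over all circRNAs, of any exon number, were small and moved by over 1.5 times in 41 of 145 cases. In the wider set they were 6 between old and young (0 to 6 under the alternatives), 2 between middle-aged and young (0 to 6) and 0 between old and middle-aged (0 to 4). In the well-covered set they were 0 (0 in each alternative), 0 (0 to 6) and 1 (0 to 2) in the same order.

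A minimum of 7 exons moved old against young from -1.15 to -2.09 points, where it passed the test (exact permutation test, adjusted p = 0.0350). Summing structures gave 1 called junction between middle-aged and young. All other changes were in the comparisons of exon classes, given as 8 or more exons minus the class named, in kb for introns, nt for exon size and percentage points for shares. With circRNAs of a single read included, the upstream intron changed to -1.16 (1 exon), -0.408 (3 to 4) and -1.14 (5 to 7), the downstream intron to 0.480 (3 to 4) and 0.459 (5 to 7), exon size to 3.702 (3 to 4), assembled transcripts to 0.166 (1) and 3.96 (2) and other structures to 0.573 (5 to 7). With at least 3 reads, the upstream intron changed to -1.30 (5 to 7), the downstream intron to 0.471 (1), exon size to 4.86 (3 to 4) and 3.59 (5 to 7) and assembled transcripts to -0.720 (3 to 4). On Ensembl transcripts alone, the upstream intron was 0.168 (5 to 7), the downstream intron 1.22 (5 to 7) and exon size 5.92 (3 to 4). Without the 6 libraries of fewest reads, the upstream intron was -0.102 and assembled transcripts -0.00824 (both 3 to 4). With mean and median exchanged, reads per circRNA were -0.271, -0.188, -0.167 and -0.0417 (1, 2, 3 to 4 and 5 to 7), the upstream intron -10.7, -0.342, -1.84 and -1.88, the downstream intron -8.49 (1), 0.558 (3 to 4) and 0.631 (5 to 7) and exon size -7.79 (3 to 4) and -0.879 (5 to 7). Those that came to pass the test are given with their adjusted p beside the result, except for exon size, where the adjusted p was 0.00429, 0.00116, 2.97e-04 and 2.5e-05 against 3 to 4 exons and 0.0243 against 5 to 7, in the order above. So the direction of the exon size difference from 3 to 4 exons and the order of the intron lengths depended on these choices.

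Depth limits the rest. Between 822 and 11561 junction reads per library and a median of 3 reads per circRNA leave most of the 579 untestable by age, and 541 of them entered neither set.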

Other observations

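The in-depth structure with the most reads on a junction not listed in the 24 libraries had 11 exons and 814 nt and lay at chr7:164269803-164283671, inside the region whose circles were found only in the youngest monkeys. It had 45 reads at 0.005 years and 0 at 40.1 years. The next, with 9 exons and 2915 nt at chr12:42363405-42368938, had 24 reads at 40.1 years and 0 at 0.005 years. It lay in the stretch of chromosome 12 that also held the 34-exon circle. In that stretch, chr12:42351193-42371513, 3 circles of 8 or more exons had 15 reads in the 24 libraries, all from middle-aged replicate 6, the library with the most junction reads. It was the only 1 of 61 loci with at least 10 such reads that had all of them in a single library. The in-depth libraries reached 38 exons at 0.005 years and 41 at 40.1 years in a single structure.

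The share of exonic circRNAs with 8 or more exons varied between chromosomes. It was highest on chromosome 15 (42 of 313, 13.4%), chromosome 12 (39 of 335, 11.6%) and chromosome 18 (30 of 258, 11.6%). It was lowest on chromosome 19 (4 of 182, 2.198%) and chromosome 10 (11 of 260, 4.23%). Circles of a locus are not independent of each other, and these shares were not tested. On chromosome 15 a single locus held 14 of the 42.

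Of the 25 circles with a host symbol, 22 were listed in an in-depth library, against 308 of all 579. The table that gave the symbols lists circRNAs that the study added from its in-depth sequencing, and it was held only in part. A symbol thus required a host transcript with circles found in depth. These counts therefore cannot be compared, and no test was made.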
